A study of Mus musculus with 24 samples.

Results

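The alternative, or M2, state of macrophages was examined here in cultures of mouse bone marrow: 4 arrays of M2-polarized cultures were compared with 4 arrays of unpolarized cultures from naive mice, called M0 naive, out of 24 arrays in 6 groups. The 8 arrays were chosen by their labels, without reference to any measured value. Per the labels, the marrow came from C57BL/6 males aged 10 weeks, mononuclear progenitors were isolated by adhesion, and both groups were grown for 7 days in RPMI with 20% L929 supernatant, a source of the macrophage growth factor M-CSF, and 10% serum. The labels give the M0 naive cultures no polarizing agent, and the label of the M2 cultures gives 20 ng/mL of IL-10, added on day 3. Of the other groups, M1 cultures, stimulated on day 3 with 50 ng/mL of interferon-gamma plus 10 ng/mL of lipopolysaccharide, and M0 cultures from mice 14 days after sepsis entered the same fit, and so share in its estimate of the spread, and show where M2 differed from them. Fitted on the M2 and M0 naive arrays alone, 4281 genes were called against 3319. The series' design mentions 2 experiments, each with 3 cultures of every group, from which the best 4 samples of a group were taken to arrays, and does not tie a sample to its experiment. A p-value here thus reflects the spread among selected cultures, some of which may share an experiment.

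Macrophages take up a program set by the cytokine they meet. IL-4 and IL-13 act through their shared receptor chain and the transcription factor STAT6 and induce arginase, chitinase-like proteins and resistin-like alpha, the textbook genes of alternative activation. IL-10 acts through its own receptor and STAT3, induces the inhibitor Socs3 and Il4ra among others, and restrains the production of inflammatory cytokines, whereas interferon-gamma and lipopolysaccharide drive the classical, or M1, program with inducible nitric oxide synthase.

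A mismatch in the files bears on what follows. A table of processed log2 values was deposited beside the scanner files, and in none of the 8 M2 and M0 naive columns was the best match the scanner file of the same sample. The best match of all 4 M2 columns was a scanner file of an M1, M0 post-sepsis or tumour-associated macrophage sample, and across the 8 columns the rank correlation was at least 0.979 with the best file and 0.848 to 0.939 with the sample's own file. Under the labels of the scanner files, the inducible nitric oxide synthase gene Nos2 lay between 1.95 and 2.18 on the 4 M2 arrays. Under the labels of the value table it ran from 9.04 to 17.2 among the 4 M2 columns, on a log2 scale of its own. Among the M0 naive columns it ran from 9.4 to 17.6. Arg1 ran there from 6.57 to 8.74 in M2 and from 6.26 to 9.18 in M0 naive, ranges that overlap. In the scanner files its ranges were 5.28 to 6.13 and -5.56 to -3.91. Pairs of M2 columns correlated at 0.868 to 0.975, and pairs of M2 scanner files at 0.950 to 0.984. Which labels are right was not tested. The scanner files were used throughout, and every direction below rests on their labels.

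The 8 scanner files were alike in depth of signal. Their 75th percentiles of processed signal lay between 357 and 635 intensity units, 58.3% to 70.0% of spots were well above background, and no spot was saturated. The arrays lay on 3 slides, each of which held both groups. Over the genes tested, pairs of M2 arrays correlated at 0.950 to 0.984 and pairs of M0 naive arrays at 0.914 to 0.993, whereas pairs of 1 array from each group correlated at 0.909 to 0.965. The ranges overlapped, and M0 naive replicates 1 and 3 had the lowest correlation within a group, 0.914. Each was closer to some M2 arrays than to the other. M0 naive replicate 3 correlated at 0.965 and 0.959 with M2 replicates 2 and 1, and M0 naive replicate 1 at 0.948 with M2 replicate 4. Leaving out M0 naive replicate 1 gave 2559 called genes and leaving out M0 naive replicate 3 gave 3684, against 3319 with all arrays.

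A level is given as the log2 of intensity relative to the 75th percentile of its own array, so that 0 is the signal that 75% of that array's probes stayed under. A change is the M2 mean minus the M0 naive mean of those levels with the standard error of the limma fit, in log2 units, n = 4 arrays per group. A gene was called at a Benjamini-Hochberg adjusted p under 0.05 from limma. Where no array of 1 group was well above background, the difference has only a lower bound, written "at least". Levels of different genes cannot be compared, since each rests on its own probe.

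Of 29743 genes and unnamed transcripts tested, 3319 (11.2%) were called, 1288 higher in M2 (4.33%) and 2031 lower (6.83%). The 2 groups of arrays did not overlap in 6209 (20.9%), and the median change over all genes was -0.10. Scaling each array to its median in place of its 75th percentile gave 1429 called genes, 760 higher and 669 lower, so that most calls were lower under the first scaling and higher under the second. Of 14856 protein-coding genes tested, 933 were called higher and 1384 lower, and of 8727 probes for long intergenic RNAs, 131 and 373. The shares over all genes are therefore a low base for lists of coding genes. They apply to every list count below against M0 naive. Against M1 14.6% of all genes were called higher and 15.4% lower, and against M0 post-sepsis 7.04% and 11.1%. In M2 against M0 naive, 298 genes were called higher by more than 2 log2 units and 277 were called lower by more than 2. Arg1, not above background on any M0 naive array, was higher by at least 1067-fold. Like ends are those of named genes well above background on 3 or more arrays of both groups. There the largest fitted rise was that of Rnase2a, given below, and the largest fitted fall that of Pcp4l1, at -5.03 ± 0.30. The fitted fall of Cx3cr1, dim in M2, was larger.

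**Figure D1:**
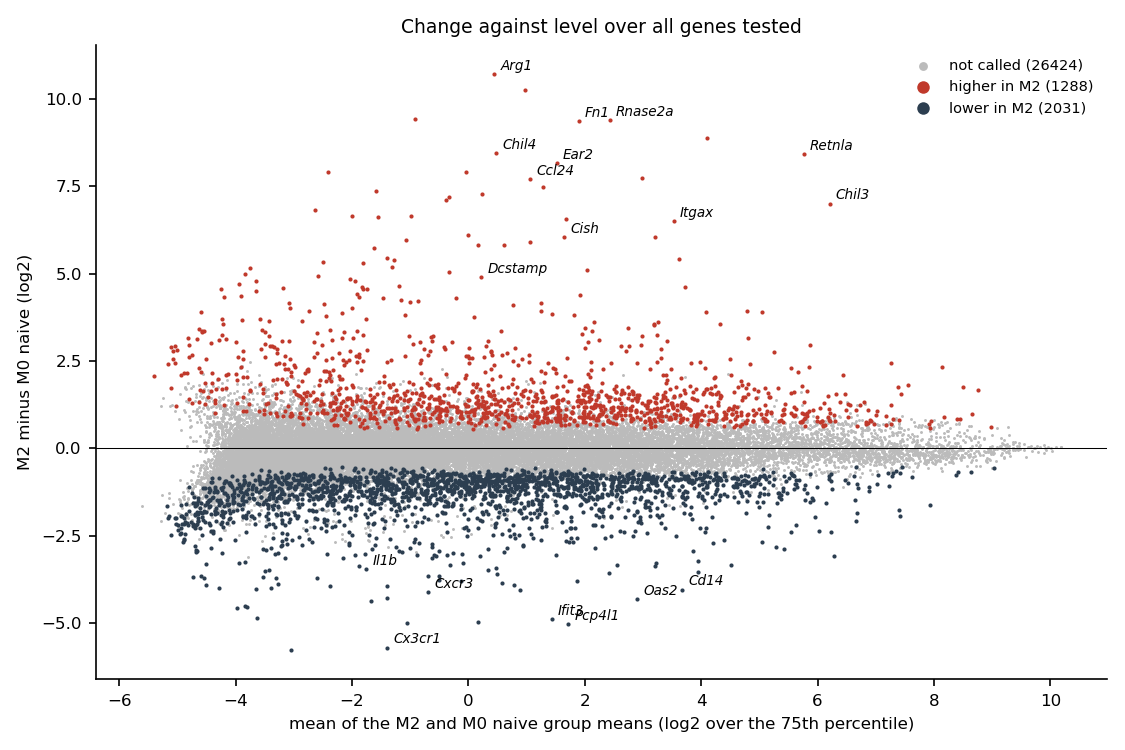
Change against level for the 29743 genes tested. The horizontal axis is the mean of the M2 and M0 naive group means (log2 over the array's 75th percentile), the vertical axis is M2 minus M0 naive (log2), and colour marks the 1288 genes called higher and the 2031 called lower. The genes of alternative activation lie at the top, and interferon-induced and inflammatory genes are among those labelled at the bottom. Arg1 and Cx3cr1 are drawn at their fitted change.

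Promoter sequences show what the words STAT6, STAT3 and interferon-type motif refer to. They were taken from RefSeq, GRCm38.p6, as the 250 bases before each gene's start on the gene's strand, a build that is not that of the array's probes. Of 254 named genes 185 had a promoter that could be used. The first 3 sequences belong to genes that rose, with capitals on matches to TTCNNNNGAA, the spacing bound by STAT6, and the next 2 to the chitinase-like genes, with capitals on TTCNNNGAA, the spacing of other STAT proteins. The last 2 belong to interferon-induced genes that fell, with capitals on TTTCNNTTTC. Both TTC motifs read the same on both strands, and TTTCNNTTTC was searched on both as GAAANNGAAA.
Retnla promoter, chr16:48842359-48842608, + strand: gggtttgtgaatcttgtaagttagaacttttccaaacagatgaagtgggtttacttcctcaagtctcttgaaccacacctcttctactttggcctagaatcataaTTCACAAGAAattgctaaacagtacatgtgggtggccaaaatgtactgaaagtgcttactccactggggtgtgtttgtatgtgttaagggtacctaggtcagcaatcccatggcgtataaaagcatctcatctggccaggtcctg
Tmem26 promoter, chr10:68723496-68723745, + strand: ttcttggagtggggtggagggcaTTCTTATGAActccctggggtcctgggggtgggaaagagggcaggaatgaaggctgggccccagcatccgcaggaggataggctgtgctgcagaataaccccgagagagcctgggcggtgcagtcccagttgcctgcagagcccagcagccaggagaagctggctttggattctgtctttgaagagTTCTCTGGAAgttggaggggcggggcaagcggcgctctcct
Itgax promoter, chr7:128129300-128129549, + strand: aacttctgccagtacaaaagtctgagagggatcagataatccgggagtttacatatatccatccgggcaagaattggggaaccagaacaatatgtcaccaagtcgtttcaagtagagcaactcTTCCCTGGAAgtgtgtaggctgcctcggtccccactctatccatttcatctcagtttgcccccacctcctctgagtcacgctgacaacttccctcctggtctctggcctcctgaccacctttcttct
Chil3 promoter, chr3:106167565-106167814, - strand: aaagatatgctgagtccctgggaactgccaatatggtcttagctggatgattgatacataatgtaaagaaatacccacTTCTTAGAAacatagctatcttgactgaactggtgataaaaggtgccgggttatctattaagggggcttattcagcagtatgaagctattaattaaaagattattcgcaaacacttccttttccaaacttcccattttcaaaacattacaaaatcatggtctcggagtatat
Chil4 promoter, chr3:106219480-106219729, - strand: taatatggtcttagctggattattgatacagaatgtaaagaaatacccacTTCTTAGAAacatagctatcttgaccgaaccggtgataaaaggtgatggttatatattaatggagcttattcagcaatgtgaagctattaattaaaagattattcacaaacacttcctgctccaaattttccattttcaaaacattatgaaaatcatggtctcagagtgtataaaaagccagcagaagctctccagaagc
Ifit3 promoter, chr19:34583279-34583528, + strand: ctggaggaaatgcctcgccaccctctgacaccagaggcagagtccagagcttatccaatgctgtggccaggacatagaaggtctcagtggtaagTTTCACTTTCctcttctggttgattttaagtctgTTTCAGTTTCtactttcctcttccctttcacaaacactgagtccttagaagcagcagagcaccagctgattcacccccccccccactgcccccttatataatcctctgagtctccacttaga
Ifit3b promoter, chr19:34607707-34607956, + strand: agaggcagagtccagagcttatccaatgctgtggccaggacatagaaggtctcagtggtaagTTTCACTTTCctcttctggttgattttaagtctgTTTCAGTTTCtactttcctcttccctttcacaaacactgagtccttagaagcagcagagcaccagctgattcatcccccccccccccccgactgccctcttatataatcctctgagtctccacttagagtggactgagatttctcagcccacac

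In the Retnla promoter the match begins at base -145 from the start, in Itgax at -127, and Tmem26 holds 2, at -227 and -41. The sequences are examples. TTCNNNNGAA was found in other genes that rose and also in genes that fell, Cd5l at -250 and Ifi213 at -249 among them. Chil3 and Chil4 carry the same 9 letters, TTCTTAGAA, at -172 and -200. Ifit3 holds its 2 matches at -156 and -122 and Ifit3b at -188 and -154, with the same letters in both genes. TTCNNNNGAA was found in 5 of the 21 promoters of genes called higher in a list of IL-4 type alternative activation, 23.8%, against 6.76% of the promoters of all 27025 genes in the table, and TTCNNNGAA in 4 of the same 21, 19.0%. TTCNNNGAA was found in 7 of 24 promoters of a list of IL-10 and STAT3 response genes, 29.2%, against 8.13% of all, and 1 of the 6 genes called higher and 2 of the 4 called lower that had a promoter held one. TTTCNNTTTC was found in 9 of 19 promoters of type I interferon response genes called lower, 47.4%, against 3.46% of all. It was found in 12 of the 22 promoters of tested members of that list, 54.5%, the 1 called higher included. TTCNNNNGAA and TTCNNNGAA were each found in 3 of the 19, 15.8%. These are matches of letters and no binding was measured. Arg1 had no entry in the table.

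Many of the largest rises were in genes of IL-4 type alternative activation. Of 34 tested members of that list, 32 were called higher in M2, none lower, with a median change of 3.72, against -0.10 for all genes. Tgm2, a transglutaminase, at -0.41 ± 0.24, and Il4ra, the IL-4 receptor chain, at -0.09 ± 0.22, were the 2 that were not called. The list holds 36 genes and, like the others, was chosen with earlier results of these data known. A member dim on the M0 naive arrays was tested only where it was well above background in M2. Such members, Arg1 and Cdh1 among them, could hardly be called lower. The count and the median are therefore not independent of how the list and its tested members were chosen. Arg1, which encodes the arginase that turns arginine into ornithine and urea, was at 5.94, 5.28, 6.13 and 5.82 on the M2 arrays and at -5.33, -4.84, -3.91 and -5.56 on the M0 naive arrays, where no array was well above background. The M2 arrays thus lay far above all M0 naive arrays, at least 1067-fold higher (limma adjusted p = 4.4e-12). The Arg1 probe lies at chr10:24636194-24636253 in the mm9 build that the files use.

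Retnla, or resistin-like alpha, a secreted protein of alternatively activated macrophages, was at 10.00, 10.18, 9.69 and 10.03 in M2 and at 1.93, 1.71, 1.06 and 1.52 in M0 naive. It was detected on every array of both groups, and the change was 8.42 ± 0.69 (limma adjusted p = 5.9e-07). Within slides 1, 2 and 3 it was 8.39, 8.40 and 8.07, slide 3 holding 1 array of each group, and with the slide as a block 3725 genes were called in all. The chitinase-like protein gene Chil3, also called Ym1, was at 9.74, 9.81, 9.44 and 9.85 in M2 and at 2.77, 2.74, 2.54 and 2.77 in M0 naive. Its close relative Chil4 (Ym2) went from -3.75 ± 0.22 (SD) to 4.69 ± 0.36 (SD). The changes were 7.01 ± 0.23 and 8.45 ± 0.31, and in neither gene did the groups overlap. The chosen probes of Chil3 and Chil4 share no run of more than 7 identical bases of 60.

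**Figure D2:**
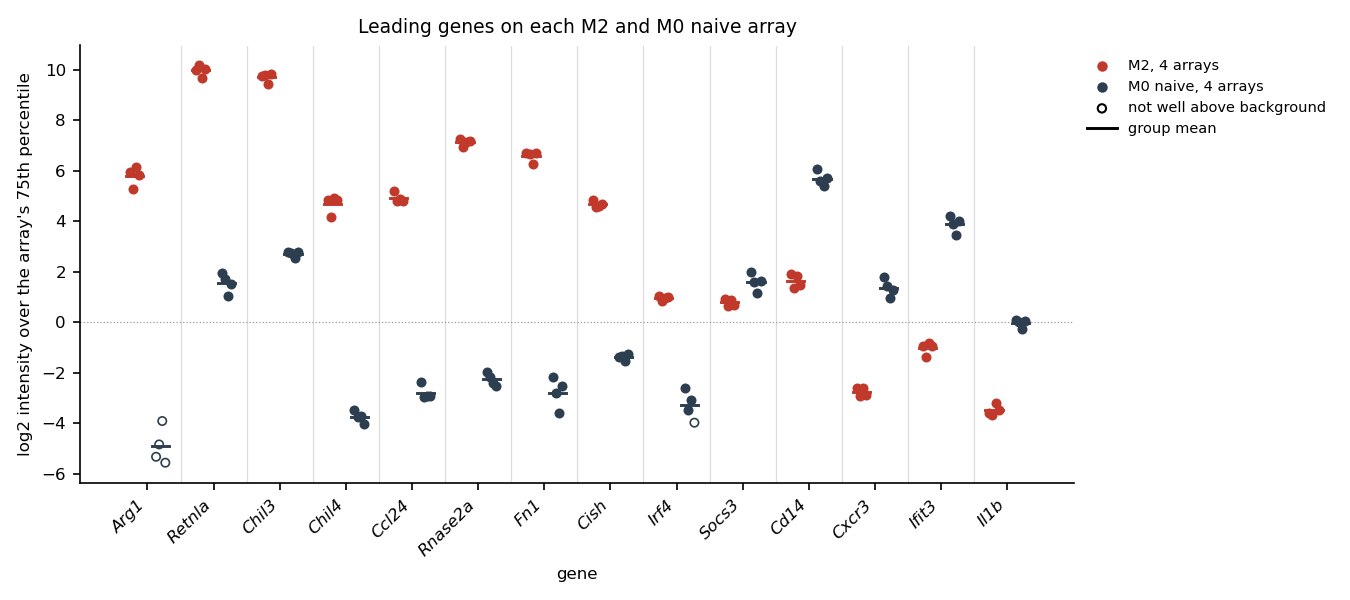
Levels of 14 genes on each of the 4 M2 and 4 M0 naive arrays (vertical axis, log2 intensity over the array's 75th percentile), with group means as bars and open circles for spots not well above background. Arg1 is not above background on any M0 naive array, and in each of the 14 genes the 2 groups do not overlap, with Socs3 the closest.

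A family of eosinophil-associated ribonucleases, which macrophages also make in alternative activation, rose with them. Of 9 tested members of the ribonuclease list 8 were called higher, with a median of 7.20, where 4.33% of all genes were called higher. The array holds 12 members. One dim in M0 naive, such as Ear1, was tested only through the M2 arrays and could hardly be called lower. The count and the median are therefore not independent of which members were tested. Rnase2a, the gene the array design names Ear11, was at 7.24, 6.95, 7.13 and 7.17 in M2 and -1.98, -2.19, -2.39 and -2.51 in M0 naive, a change of 9.39 ± 0.27. Ear2 changed by 8.16 ± 0.18, Ear12 by 7.91 ± 0.30, Ear10 by 7.49 ± 0.27 and Ear1 by 7.20 ± 0.36, with 3 of 4 M0 naive arrays above background for Ear12 and 2 of 4 for Ear1. Ear6 rose by less, 1.77 ± 0.42, as did the more distant Rnase4 at 1.11 ± 0.32 and Rnase6 at 0.85 ± 0.24, while Ang, angiogenin, was not called at 0.19 ± 0.22. The Ear genes are close copies of each other. The probes of Ear12 and Ear10 share a run of 23 bases of 60, those of Ear2 and Ear6 another of 23 and those of Ear12 and Ear1 one of 19, so which of these copies carries the signal is uncertain. The calls of Rnase4 and Rnase6 were lost with median scaling, without the filter on dim probes, and with several single arrays left out, M2 replicates 1 and 3 and M0 naive replicates 2 and 3 for both genes. Of the defining granule genes of eosinophils, Epx, eosinophil peroxidase, and Prg3 were not well above background on any of the 8 arrays, and Prg2, the major basic protein gene, was at -0.93 ± 0.38 and not called. Of the 11 eosinophil markers, 6 were above background on 3 or more arrays in each group, and 4, Epx, Prg3, Gata1 and Alox15, on none. The summed linear level of the list ran from 58.3 to 73.5 on the M2 arrays and from 3.04 to 5.87 on the M0 naive arrays, where a value of 1 is the 75th percentile. That list holds Ear1, Ear2 and Ear6, and its other called members were Siglecf, a sialic acid receptor that some macrophages also carry, at 3.11 ± 0.27, and Ccr3, the eotaxin receptor, which was lower at -2.71 ± 0.26. A part played by eosinophils was not tested.

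The other called members of the IL-4 list covered regulators, surface proteins and secreted proteins. Irf4, a transcription factor needed for alternative activation, changed by 4.25 ± 0.35, with 3 of 4 M0 naive arrays above background, Egr2, a zinc-finger factor, by 3.61 ± 0.26, and Batf3, a factor best known from dendritic cells, by 3.60 ± 0.21. Klf4, also a zinc-finger factor, rose by 1.93 ± 0.27. Pparg, the lipid-sensing nuclear receptor, rose by 0.95 ± 0.22 and Myc, a growth regulator, by 1.28 ± 0.37, and both calls were lost with median scaling. The call of Myc was also lost with any single array left out but M2 replicate 2. Among surface proteins, Itgax (CD11c) changed by 6.52 ± 0.23, Pdcd1lg2, the PD-1 ligand PD-L2, by 5.81 ± 0.30, and Cdh1, E-cadherin, was at least 7.75-fold higher. The mannose receptor Mrc1 rose by 2.19 ± 0.25 and the lectins Clec10a, Mgl2 and Clec7a (dectin-1) by 1.95 ± 0.22, 1.51 ± 0.19 and 2.45 ± 0.22. Flt1, a VEGF receptor, changed by 3.83 ± 0.57 and Matk, a tyrosine kinase, by 2.83 ± 0.19.

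Fn1, the matrix protein fibronectin, was among the largest rises of the whole array, at 6.71, 6.66, 6.27 and 6.70 in M2 against -2.18, -2.82, -3.61 and -2.54 in M0 naive. The change was 9.37 ± 0.29 and M2 replicate 3 was the lowest of its group by a clear gap. Genes outside the lists with large rises were Bex1, a small signalling adaptor gene, at 7.74 ± 0.44 and the tubulin gene Tuba8 at 7.28 ± 0.25. Among genes not above background on any M0 naive array, Tmem26, a membrane protein, was at least 283-fold higher, Ddx4, an RNA helicase of germ cells, at least 87.3-fold, Cldn11, a tight-junction claudin, at least 68.5-fold, and Ffar4, a receptor for long-chain fatty acids, at least 59.3-fold. Bok, of the Bcl-2 family, followed at 51.2-fold, Cyp1b1, a cytochrome P450, at 35-fold and Awat1, a wax ester synthase, at 33.8-fold, each again a lower bound. In all, 79 genes called higher were not above background on any M0 naive array. Such genes passed the filter only through the M2 arrays, so they could hardly be called lower.

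Signalling genes downstream of cytokine receptors were split. Of 37 tested 9 were called higher and 8 lower, the latter 2 with median scaling and 13 with quantile scaling. Of all genes 4.33% were called higher and 6.83% lower. Cish, a feedback inhibitor induced by STAT5 and STAT6, was at 4.84, 4.58, 4.61 and 4.67 in M2 and -1.37, -1.34, -1.53 and -1.27 in M0 naive, a change of 6.06 ± 0.21 with no overlap. The inhibitors Socs1 and Socs2 rose by 4.38 ± 0.17 and 3.21 ± 0.43, though the changes of the 4 probes kept for Socs2 ran from -0.73 to 3.37. Socs3, the feedback inhibitor that IL-10 and STAT3 induce, was lower, at 0.92, 0.66, 0.86 and 0.69 in M2 against 1.99, 1.60, 1.16 and 1.65 in M0 naive, a change of -0.82 ± 0.24. The call was lost with median scaling, without the filter on dim probes, and with any single array left out but M0 naive replicate 3. All 4 M2 arrays lay below all 4 M0 naive arrays. The kinase Jak2 rose by 1.56 ± 0.20 and the receptor chains Csf2rb and Il6st by 2.11 ± 0.26 and 1.76 ± 0.28. Stat2 was lower at -1.32 ± 0.28 and Stat4 at -1.90 ± 0.24, and Stat6 itself was not called at -0.09 ± 0.27. The call of Stat2 was lost with median scaling.

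Since the M2 label names IL-10, the response to IL-10 was read from a list of its own. Of 30 tested members 7 were called higher and 6 lower, with a median of -0.22, where 4.33% of all genes were called higher and 6.83% lower. With median scaling 4 were higher and 3 lower. The lower ones included Cd14, a co-receptor for lipopolysaccharide, at 1.91, 1.35, 1.83 and 1.49 in M2 and 6.08, 5.58, 5.38 and 5.70 in M0 naive, a change of -4.04 ± 0.23. The Fc receptor Fcgr1 was lower at -3.58 ± 0.21, the scavenger receptor Marco at -1.92 ± 0.21, Il10ra, a chain of the IL-10 receptor, at -1.17 ± 0.25 and Bcl3, a nuclear partner of NF-kB, at -0.71 ± 0.22. The calls of Il10ra and Bcl3 were lost with median scaling, and that of Bcl3 also with any single array left out but M0 naive replicate 3. Those called higher were Nfil3, a repressor of Il12b, at 2.58 ± 0.22, the sphingosine kinase Sphk1 at 3.19 ± 0.35, the Fc receptors Fcgr2b and Fcgr3 at 2.01 ± 0.30 and 1.69 ± 0.41, the kinase Pim1 at 1.12 ± 0.26, Hmox1, heme oxygenase, at 2.09 ± 0.59 with overlapping arrays, and Slamf1, at least 9.07-fold. With median scaling Fcgr3, Pim1 and Hmox1 were not called, and the call of Hmox1 was also lost without any one of M2 replicates 3 and 4 and the 4 M0 naive replicates. Against M1, 6 of the 30 were called higher in M2 and 14 lower, with a median of -0.73, where 14.6% of all genes were called higher and 15.4% lower. Against M0 post-sepsis 14 were called higher and 4 lower, with a median of 0.60, where 7.04% of all genes were called higher and 11.1% lower. Slamf1, Sphk1 and Pim1 were lower in M2 than in M1, at -3.83 ± 0.25, -1.71 ± 0.35 and -0.79 ± 0.26. Stat3 was at -0.69 ± 0.24 and Il1rn at 0.23 ± 0.25, neither called, and Il10 itself was lower at -1.32 ± 0.25, a call lost with the normexp background. The scavenger receptor Cd163 and Il6 did not pass the filter on dim probes. The cytokine in the M2 cultures is known here from the label alone, and its identity was not tested.

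Genes of the type I interferon response fell together. Of 29 tested members 24 were called lower in M2 and 1 higher, with a median of -1.97, against 6.83% of all genes called lower. Ifit3, an interferon-induced protein that blocks viral replication, was at -0.93, -1.39, -0.82 and -0.93 in M2 and 4.20, 3.88, 3.44 and 3.99 in M0 naive, a change of -4.89 ± 0.22 (limma adjusted p = 8.3e-10). Every M2 array lay below every M0 naive array, and its near neighbour Ifit3b changed by -4.99 ± 0.23, with probes that share no run above 8 bases. Oas2, a sensor of double-stranded RNA, changed by -4.31 ± 0.27, and the regulator Irf7 by -3.49 ± 0.24. Oasl2 stood at -3.28 ± 0.22, Rtp4 at -3.32 ± 0.24, Ifi44 at -3.32 ± 0.59, Mx1 at -2.56 ± 0.24 and Isg15, a ubiquitin-like modifier, at -1.39 ± 0.22, the last not called with median scaling. The number called lower was 18 to 24 under the alternatives and 23 or 24 with any array left out. Gbp2, a GTPase that interferon-gamma also induces, was the 1 member called higher, at 1.48 ± 0.21. Usp18, Gbp3, Zbp1 and Bst2 were not called.

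The level of these genes differed among the other groups, a difference described here and not tested. Ifit3 had a mean of 3.88 ± 0.32 (SD) in M0 naive, 0.19 ± 0.39 (SD) in M0 post-sepsis, -1.02 ± 0.25 (SD) in M2 and 4.07 ± 0.11 (SD) in M1. Tested against M0 post-sepsis, 7 of the 29 members were called higher in M2 and 5 lower, with a median of -0.24, where 7.04% of all genes were called higher and 11.1% lower. Ifit3 and Oas2 were still lower there, at -1.21 ± 0.22 and -1.84 ± 0.27, while Irf7 at -0.24 ± 0.24 and Mx1 at 0.14 ± 0.24 were not called. Against M1 all 29 were called lower in M2, with a median of -4.92, where 14.6% of all genes were called higher and 15.4% lower. All 3 comparisons share the M2 arrays.

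Genes of classical activation were mostly lower, with exceptions. Of 21 tested members of the M1 list 12 were called lower and 4 higher, with a median of -1.68. Of all genes 6.83% were called lower and 4.33% higher. Il1b, the cytokine interleukin-1 beta, was at -3.61, -3.66, -3.20 and -3.47 in M2 and 0.10, 0.01, -0.27 and 0.05 in M0 naive, a change of -3.46 ± 0.22. Tnf was at -2.12 ± 0.25, the acute-phase protein gene Saa3 at -3.24 ± 0.22 and the chemokine Ccl5 at -2.37 ± 0.19. Cxcl1, a neutrophil chemoattractant, was at least 7.84-fold lower and not above background on any M2 array, a call lost with the normexp background. The 4 that rose were Nos2, from 0.54 ± 0.18 (SD) to 2.02 ± 0.11 (SD), the prostaglandin synthase Ptgs2 at 2.42 ± 0.40 with 1 of 4 M0 naive arrays above background, the chemokine Cxcl9 at 1.39 ± 0.38, and Acod1, which makes itaconate, at 0.83 ± 0.18. The call of Acod1 was lost with median scaling, and that of Cxcl9 with the replicate block and without any one of M2 replicates 1 to 3 and M0 naive replicates 1, 2 and 4. In M1 cultures Nos2 had a mean of 8.88 ± 0.18 (SD), so that the difference of M2 from M1 was -6.86 ± 0.16. In M2 against M1, 21 of 24 members were called lower and none higher, where 15.4% of all genes were called lower. Against M0 post-sepsis 9 of 21 members were called higher in M2 and 7 lower, with a median of -0.09. Of all genes 7.04% were called higher and 11.1% lower there. Saa3 and Ccl5 were higher in M2 than in M0 post-sepsis, by 1.66 ± 0.22 and 5.04 ± 0.19, whereas Tnf stayed lower at -2.30 ± 0.25.

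Cytokine and feedback genes of NF-kB were next. Of 22 tested members of that list 10 were called lower, 3 higher, with a median of -0.55. Of all genes 6.83% were called lower and 4.33% higher. The inhibitor Nfkbia was at -1.27 ± 0.18, the adaptor Traf1 at -1.33 ± 0.19 and Relb at -1.12 ± 0.23, whose 3 probes ran from -1.12 to 0.30. The 3 higher were Cd40, Ccl2 and Ccl7. The number called lower was 3 with median scaling and 6 without the filter on dim probes. Leaving out single arrays gave 5 (M2 replicate 3 or M0 naive replicate 1) or 6 (M2 replicate 1, 2 or 4 or M0 naive replicate 2). Against M0 post-sepsis 6 of the 22 were called higher in M2 and 3 lower, with a median of 0.35. Of all genes 7.04% were called higher and 11.1% lower there.

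Chemokines went both ways. Of 24 tested 11 were called higher and 8 lower, where 4.33% of all genes were called higher and 6.83% lower. The ligands of alternative activation rose: Ccl24, or eotaxin-2, was at 5.20, 4.80, 4.90 and 4.79 in M2 and -2.37, -2.95, -2.91 and -2.93 in M0 naive, a change of 7.71 ± 0.21. Ccl17, a ligand of Ccr4, changed by 4.56 ± 0.45 against a group with 1 of 4 arrays above background, and Ccl22, which shares that receptor, was at least 5.18-fold higher. The monocyte attractants Ccl8, Ccl7, Ccl12 and Ccl2 rose by 5.41 ± 0.23, 3.53 ± 0.27, 2.93 ± 0.24 and 2.56 ± 0.28, and their probes share no run above 8 bases. Ccl6 and Ccl9 rose by 2.34 ± 0.21 and 1.81 ± 0.21. The inflammatory ligands Ccl3, Ccl4, Cxcl2 and Cxcl10 were lower at -1.68 ± 0.32, -2.71 ± 0.18, -2.36 ± 0.27 and -3.61 ± 0.25, the call of Ccl3 lost with median scaling. Against M0 post-sepsis, Ccl2, Ccl7 and Ccl12 were instead lower in M2, at -1.70 ± 0.28, -1.01 ± 0.27 and -1.29 ± 0.24.

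Of 12 tested chemokine receptors 6 were called lower and 2 higher, where 6.83% of all genes were called lower and 4.33% higher. The number lower was 4 to 6 under the alternatives, and the calls of Ccr2 and Cxcr4 were lost with median scaling. Cx3cr1, the fractalkine receptor, changed by -5.70 ± 0.32 with 2 of 4 M2 arrays above background. Cxcr3, the receptor for Cxcl9 and Cxcl10, was at -2.62, -2.92, -2.61 and -2.88 in M2 against 1.81, 1.42, 0.94 and 1.27 in M0 naive, a change of -4.12 ± 0.22 with no overlap. Ccr2, the receptor that brings monocytes out of the marrow, was at -1.52 ± 0.33. Ccr1 rose by 2.81 ± 0.32 and its neighbour Ccr1l1 by 3.04 ± 0.26.

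The machinery of antigen presentation on MHC class II rose. Of 12 tested members 8 were called higher and none lower, with a median of 1.79, where 4.33% of all genes were called higher. The number higher stayed at 8 in each alternative and with each array left out. Cd74, the invariant chain, was at 7.31, 6.71, 7.25 and 6.71 in M2 and 3.35, 3.10, 2.71 and 3.19 in M0 naive, a change of 3.91 ± 0.26. H2-Aa, H2-Ab1 and H2-Eb1, the class II chains, rose by 3.37 ± 0.27, 2.96 ± 0.23 and 2.77 ± 0.21, and H2-DMa, which loads the peptide, by 2.86 ± 0.23. Their master regulator Ciita rose by 1.88 ± 0.36. Against M1, 1 of the 12 was called higher in M2 and 5 lower, with a median of -0.24, where 14.6% of all genes were called higher and 15.4% lower: H2-Ab1 was lower at -1.14 ± 0.23, and Ciita was not called at -0.20 ± 0.36. Co-stimulators were split: of 15 tested 4 were called higher and 6 lower, where 4.33% of all genes were called higher and 6.83% lower. With median scaling 1 was called higher, the PD-1 ligand Pdcd1lg2, which rose by 5.81 ± 0.30. Cd274 (PD-L1) rose by 1.09 ± 0.27, Cd40 by 0.91 ± 0.22 and Cd200r1, an inhibitory receptor, by 0.88 ± 0.27, calls lost with median scaling. That of Cd200r1 was also lost with the normexp background, without the filter on dim probes, with the replicate block and with any single array left out but M2 replicate 2. Cd86 was lower at -1.60 ± 0.22 and Icosl, the ligand of ICOS, at -4.28 ± 0.24 with 3 of 4 M2 arrays above background.

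**Figure D3:**
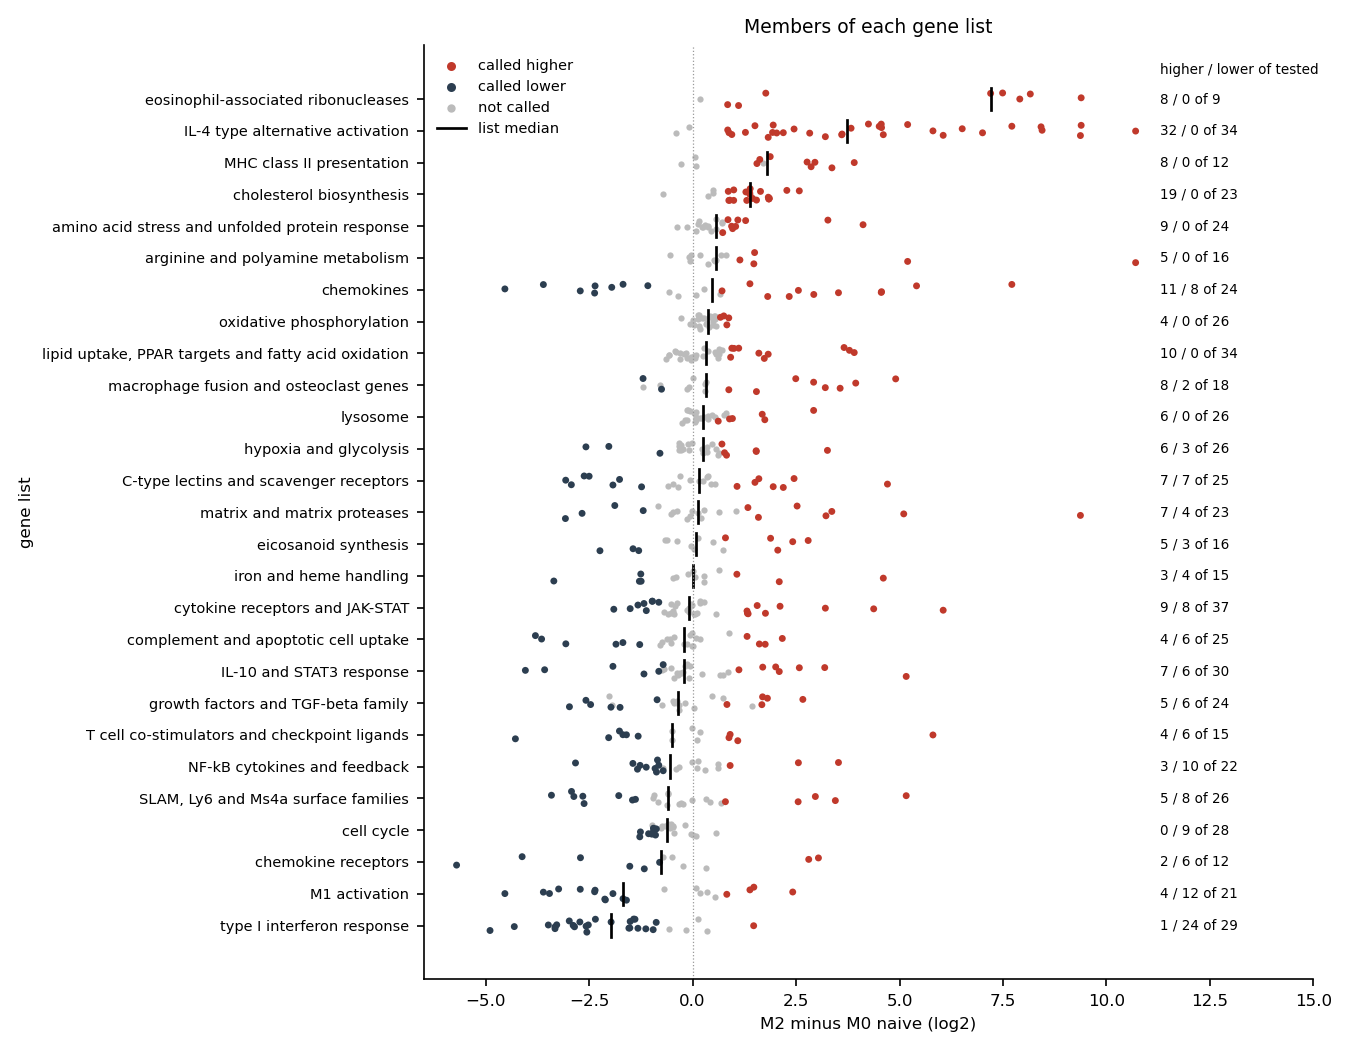
Change of each tested member in 27 gene lists (horizontal axis, M2 minus M0 naive, log2; 1 row per list, points spread vertically for visibility). Colour marks called genes, black bars are list medians and the counts at the right give members called higher and lower of those tested. The ribonuclease and IL-4 lists lie highest, with medians of 7.20 and 3.72, and the type I interferon list lowest, at -1.97. Genes with only a bound are drawn at their fitted change.

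Genes of sterol synthesis rose. Of 23 tested genes of cholesterol biosynthesis and uptake 19 were called higher and none lower, with a median of 1.38. Of all genes 4.33% were called higher. Hmgcs1, which makes HMG-CoA, was at 5.97, 5.51, 5.95 and 5.74 in M2 and 4.60, 4.23, 3.62 and 4.16 in M0 naive, a change of 1.64 ± 0.23, with 0.56 on its second probe. The mevalonate decarboxylase Mvd rose by 2.28 ± 0.24 and the lanosterol synthase Lss by 2.58 ± 0.28. Leaving out single arrays gave 17 to 19 calls and the alternatives 14 to 19. Against M0 post-sepsis none of the 23 was called higher in M2 and 8 were called lower, with a median of -0.52. Of all genes 11.1% were called lower in that comparison. Hmgcs1 had a mean of 5.81 ± 0.35 (SD) in M0 post-sepsis and 2.10 ± 0.16 (SD) in M1.

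Of 34 tested lipid genes beyond sterols 10 were called higher and none lower, where 4.33% of all genes were called higher. Under median scaling 6 were higher. The desaturase Scd2 rose by 3.91 ± 0.24, and Scd1 by 3.79 ± 0.43 against a group with 2 of 4 arrays above background. The scavenger receptor Cd36 rose by 1.60 ± 0.31, the sterol exporter Abcg1 by 1.73 ± 0.19 and Ppargc1b, a co-activator of mitochondrial genes, by 1.83 ± 0.17. The oxidative phosphorylation list had 4 of 26 called higher, with a median of 0.37. That number was 9 with quantile scaling, 0 with median scaling, 1 without the filter on dim probes, and 1 without any single M2 replicate 1, 3 or 4 or M0 naive replicate 2, 3 or 4.

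Other genes of arginine handling rose beside Arg1. Slc7a2, an arginine transporter, rose by 5.20 ± 0.25 with 3 of 4 M0 naive arrays above background, Ass1, which rebuilds arginine from citrulline, by 1.14 ± 0.22, and Aldh18a1, a step of proline synthesis, by 1.5 ± 0.38, the last not called with median scaling, with the normexp background or without M2 replicate 3. The polyamine enzymes Odc1 and Srm were not called at 0.18 ± 0.16 and 0.69 ± 0.28. In all, 5 of 16 members were called higher, Nos2 and Arg1 among them, and 9 with quantile scaling. Of all genes 4.33% were called higher.

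Genes of macrophage fusion rose in 8 of 18 tested members and fell in 2, where 4.33% of all genes were called higher and 6.83% lower. Dcstamp, a membrane protein needed for cell fusion, was at 2.69, 2.41, 2.72 and 2.85 in M2 and -1.68, -2.18, -2.61 and -2.48 in M0 naive, a change of 4.91 ± 0.22. Its partner Ocstamp rose by 2.49 ± 0.33, the proton pump subunit Atp6v0d2 by 3.94 ± 0.21, the acid phosphatase Acp5 by 3.57 ± 0.21, the integrin Itgb3 by 3.21 ± 0.24 and the protease Ctsk by 2.92 ± 0.25. Tnfrsf11a, the receptor for RANKL, was lower at -1.20 ± 0.18, a call lost with median scaling, and Nfatc1, the master factor of osteoclasts, was not called at -0.79 ± 0.25. The 2 that fell, Tnfrsf11a and Sirpa, became 1 without M2 replicate 2 or 3 or M0 naive replicate 1 or 2, and 0 with median scaling. The matrix proteases Mmp12, Mmp13 and Mmp19 rose by 5.10 ± 0.25, 3.36 ± 0.33 and 3.22 ± 0.20 and the inhibitor Timp1 by 2.53 ± 0.22, while the angiogenic factor Vegfa was lower at -2.58 ± 0.26 and the matrix protein Thbs1 at -2.67 ± 0.27.

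Of 25 tested lectins and scavenger receptors 7 were called higher and 7 lower, and of 25 genes of complement and apoptotic cell uptake 4 were higher and 6 lower. Of all genes 4.33% were called higher and 6.83% lower. Olr1, a receptor for oxidized LDL, was at least 6.76-fold higher. Stab1, a scavenger receptor, was lower at -2.93 ± 0.24, Cd5l, a secreted scavenger protein, at -3.07 ± 0.23, and Clec4e (mincle) at -2.50 ± 0.21. C5ar1, the receptor for C5a, was at 0.11, -0.34, 0.11 and -0.02 in M2 and 4.27, 3.81, 3.25 and 3.71 in M0 naive, a change of -3.80 ± 0.22. Axl, a receptor for apoptotic cells, and its ligand Gas6 were lower at -3.06 ± 0.28 and -1.85 ± 0.22, while Mfge8, a bridging protein in the same uptake, was higher at 1.75 ± 0.21. Of 15 tested genes of iron and heme handling 3 were called higher and 4 lower. The transferrin receptor Tfrc was at 4.61 ± 0.31 and the iron exporter Slc40a1 (ferroportin) at -3.35 ± 0.24. The number higher in that list was 1 with median scaling and without the filter on dim probes. It was also 1 without M2 replicate 3 or 4 or M0 naive replicate 1 or 3.

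Of 28 tested members of the cell cycle list 9 were called lower and none higher, with a median of -0.63. Of all genes 6.83% were called lower. But none of the 28 was called lower with median scaling, 17 were with quantile scaling and 15 without M0 naive replicate 3. Plk1, a mitotic kinase, was at 1.88, 1.53, 1.87 and 1.70 in M2 and 3.24, 2.64, 2.05 and 2.62 in M0 naive, a change of -0.90 ± 0.24, with no overlap. Its call was lost with median scaling and without M2 replicate 2 or 4 or M0 naive replicate 1, 2 or 4. Against M0 post-sepsis 25 of the 28 were called lower in M2, with a median of -2.53, where 11.1% of all genes were called lower. Against M1 24 were called higher and 3 lower, where 14.6% of all genes were called higher and 15.4% lower.

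**Figure D4:**
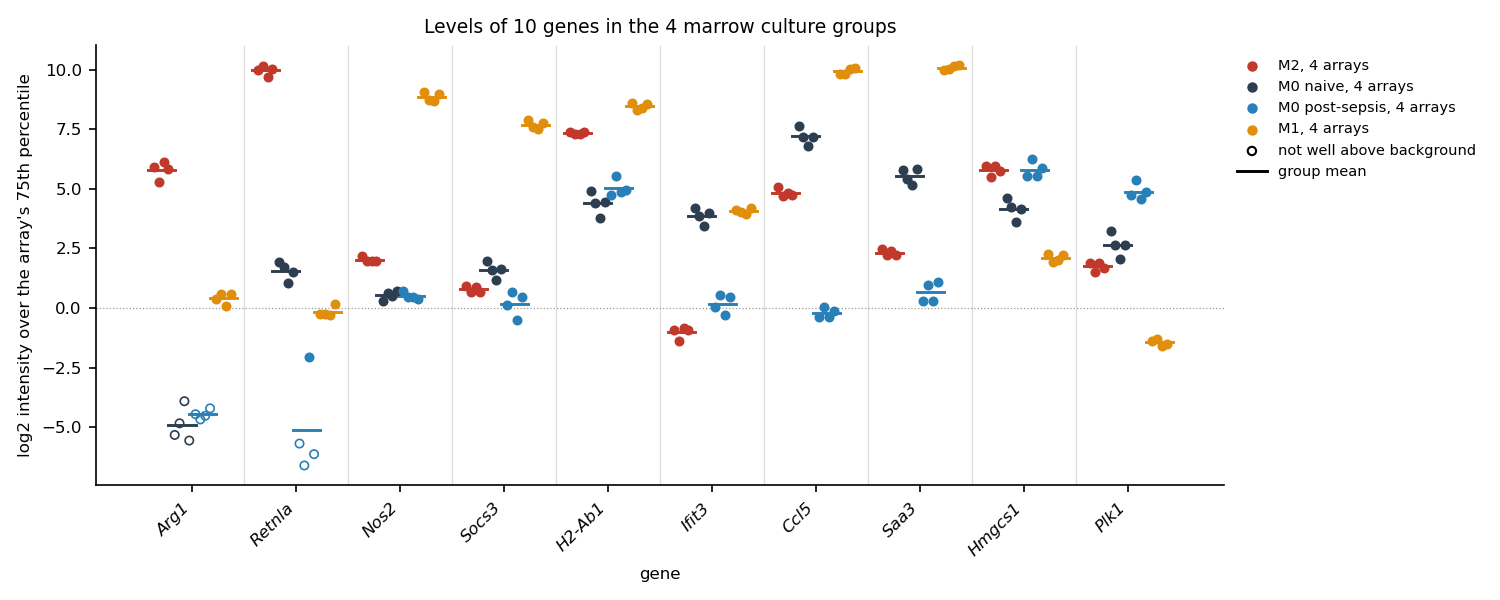
Levels of 10 genes on each array of the M2, M0 naive, M0 post-sepsis and M1 groups (vertical axis, log2 intensity over the array's 75th percentile), with group means as bars and open circles for spots not well above background. Arg1 and Retnla are highest in M2. Ifit3, Ccl5 and Saa3 have higher means in M0 naive than in M0 post-sepsis, and Hmgcs1 differs between M2 and M0 post-sepsis by -0.02 ± 0.23.

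The genes of alternative activation were also higher in M2 than in the other marrow groups. Of 34 tested IL-4 list members 31 were called higher in M2 than in M0 post-sepsis, with a median of 3.84 and none lower. Of all genes 7.04% were called higher there. Against M1, 29 of the 34 were called higher and 4 lower, with a median of 4.94, where 14.6% of all genes were called higher and 15.4% lower. The 4 lower ones were Slc7a2 at -2.74 ± 0.25, Klf4 at -1.82 ± 0.27, Mgl2 at -0.75 ± 0.19 and Tgm2 at -4.39 ± 0.24. Arg1 was detectable in M1, with a mean of 0.42 ± 0.24 (SD), and M2 lay above M1 by 5.37 ± 0.30. Retnla had a mean of -0.16 ± 0.21 (SD) in M1 and ran from -6.61 to -2.04 in M0 post-sepsis, where it was above background on 1 of 4 arrays.

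The cells carried the defining macrophage genes in both groups. All 19 macrophage markers were above background on 3 or more arrays of each group, and Csf1r, the M-CSF receptor, was at 9.0, 8.90, 8.71 and 9.0 in M2 and 9.30, 9.08, 8.74 and 9.07 in M0 naive. Csf1r was not called, at -0.14 ± 0.19, and Adgre1, a macrophage surface marker, was lower at -0.80 ± 0.21, a call lost in 4 alternatives, median scaling among them, and without M2 replicate 2 or 3 or M0 naive replicate 1 or 4. Of the 19, 2 were called higher, the transcription factor Cebpa at 1.45 ± 0.29 and Fcgr3, 1 of them with median scaling, and 5 lower, Adgre1, Cd14 and Fcgr1 among them. Maf, a macrophage transcription factor, and Aif1, a calcium-binding protein of macrophages, were lower at -2.39 ± 0.30 and -2.24 ± 0.21. Of all genes 6.83% were called lower and 4.33% higher, shares that apply to each marker list here. Of 18 neutrophil markers 8 were called lower in M2 and 1 higher. S100a8, a calcium-binding protein of neutrophils, and Camp, an antimicrobial peptide gene, were at -1.53 ± 0.22 and -1.52 ± 0.21, and the summed linear level of the list ran from 305 to 689 in M2 and from 375 to 944 in M0 naive, ranges that overlap. The part of neutrophil precursors in the genes called lower was not tested. In bulk cultures, fewer cells of a type and less RNA per cell cannot be told apart. Of 14 dendritic cell markers, Xcr1, Itgae and Cd209a were above background on no array of either group, and Dpp4 and Clec9a on no M0 naive array. Of the 9 tested, Flt3 at -0.21 ± 0.39 and Zbtb46 at -0.14 ± 0.37 were not called, the 2 called higher were Irf4 and Batf3, and the 1 called lower was Kit, a receptor of progenitors and mast cells, at -2.18 ± 0.33 with 1 of 4 M2 arrays above background. The summed level of the B cell list was 2.03 to 4.85 in M2 and 5.10 to 6.87 in M0 naive, with Cd79b, a chain of the B cell receptor complex, lower at -1.71 ± 0.23. That of the endothelial list was 53.8 to 70.5 in M2 and 17.1 to 32.9 in M0 naive, with Vwf, the clotting factor also in the IL-4 list, higher at 2.03 ± 0.26. Their part in the results was not tested.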

How the data were processed

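One Agilent 1-colour (Cy3) array was scanned per sample. The deposited intensity was background-subtracted and detrended by the authors' extraction software, per the file headers. That software is Agilent Feature Extraction, version 12.5 per the submitters' processing notes and 10.7.3.1 per the file headers. The deposited log2 value table, whose processing by the authors was not given in the sources used here, served only to be matched to scanner files.

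Control spots were dropped, spots of a probe averaged, and log2 intensity scaled to each array's 75th percentile. A probe was kept when well above background on 3 arrays of M2 or of the compared group, and the brightest kept probe stood for its gene. Symbols were updated through RefSeq where an accession or symbol matched, and of 55681 probes 23254 had no name. The 16 marrow arrays were fitted together with limma 3.58.1 in R 4.3.3, and p-values were adjusted over all genes kept. A bound sets the brighter group's mean against the dimmest signal well above background on the dim group's arrays, or the dim probe's own signal where higher. The fit was tested on simulated data. Alternatives were normexp (offset 50), median and quantile scaling, other filters, averaged probes, non-uniform spots left out, slide and replicate blocks, only the compared groups, and each array left out.

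The genes named are the 12 highest and 12 lowest called changes, the 8 highest and 8 lowest bounds, up to 6 members of smallest p per list, called members of 3 lists, and a fixed few. Other names were chosen after their values were seen, and a few genes are not reported here. The comparison, the 27 gene lists and the 10 marker lists were chosen with earlier results of these data known.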

Additional observations from a re-analysis of the deposited data

Results flagged for a closer look

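Among 502 sets of 4 arrays (a named gene in 1 group), 30 (5.98%) had 1 array far from the other 3, its gap to the nearest, as a share of the range, exceeding the critical value of the Dixon test. Chance gives about 1 in 20. Values are log2 over the array's 75th percentile.

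M2 replicate 3 was lowest for Fn1 at 6.27, Mfge8 at 9.10, Ctsl at 9.31 and Col1a2 at -1.08, and highest for Thy1 at -2.17 and Il10 at -3.46, where 3 of 4 arrays were above background. M2 replicate 2 was lowest for Chil4 at 4.16, Itgax at 6.5, Ccl7 at 4.40, Hpgds at -0.56 and Fcgr3 at 4.48. It was highest for Car1 at -1.08 and for Srpk3 at -5.89, a gene above background on no M2 array. M2 replicate 1 was highest for Nos2 at 2.18. M2 replicate 4 was highest for Abcg1 at 6.42 and Timp1 at 0.64 and lowest for Alox5 at -3.95 and Dcn at -2.61.

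M0 naive replicate 3 was lowest for Chil3 at 2.54, Ifit3b at 0.95, Cdk1 at 1.91, Tmem176b at 5.26, Tfrc at 1.04, S100a9 at 7.19, Prf1 at 0.098 and Kdr at 3.16, and highest for Socs2 at -1.63. M0 naive replicate 1 was highest for Ccl24 at -2.37 and Sncaip at -0.77, and M0 naive replicate 4 was lowest for Ear12 at -4.54.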

How the results depend on the processing

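With median scaling 1429 genes were called in M2 against M0 naive, and 38 of the 252 measured named genes lost their call. Fitting only the arrays of the compared groups called 3105 genes against M0 post-sepsis. The cause of either change was not tested. With single arrays left out, the numbers called ran from 2303 to 3684 against M0 naive, from 7384 to 8291 against M1 and from 4089 to 7359 against M0 post-sepsis. The other alternatives kept each of the 3 numbers within 1.5 times. Replicate numbers did not pair the arrays, since deviations of same-numbered arrays correlated at -0.40, 0.06, -0.29 and -0.07. Some differently numbered arrays did share deviations. M0 naive replicate 3 correlated at 0.63 with M2 replicate 2 and at -0.65 with M2 replicate 4. M0 naive replicate 1 correlated at -0.59 and 0.62 with the same 2 arrays. The source of this structure was not tested, and the replicate block does not model it. With the replicate block 3274, 8495 and 5172 genes were called. Of 216 called named genes 173 kept sign and call in every alternative and with every array left out, and none reversed. The number of arrays, 4 per group, limits the precision.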

Other observations

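Prostaglandin genes and growth factors also shifted in M2. Of 16 tested eicosanoid genes 5 were called higher and 3 lower, where 4.33% of all genes were called higher and 6.83% lower. The prostaglandin synthase Ptgs1 rose by 1.88 ± 0.41 and the prostacyclin and PGE2 receptors Ptgir and Ptger2 by 2.79 ± 0.21 and 2.06 ± 0.25, whereas Hpgds, which makes PGD2, was lower at -2.24 ± 0.40. The number called lower was 1 with median scaling, without M2 replicate 4 and without M0 naive replicate 2. Of 24 growth factor genes 5 were called higher and 6 lower, against the same shares of all genes. Hbegf, an EGF receptor ligand, rose by 2.66 ± 0.21, Inhba, which makes activin A, by 1.81 ± 0.30 and Csf1, which encodes M-CSF, by 1.67 ± 0.22. Bmp2 and Smad3, of TGF-beta family signalling, were lower at -2.98 ± 0.33 and -2.46 ± 0.25.

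Surface families of the SLAM, Ly6 and Ms4a kinds were called higher in 5 and lower in 8 of 26 tested members. Of all genes 4.33% were called higher and 6.83% lower, shares that apply to each list of this paragraph. Ms4a4a, a tetraspan membrane protein, rose by 3.45 ± 0.37 and Slamf8 by 2.97 ± 0.22, while Ly6a (Sca-1) was lower at -3.41 ± 0.29 and Tmem176b at -2.62 ± 0.22. The number called higher was 3 with the normexp background and without any one of M2 replicates 1, 3 and 4. Of 24 genes of amino acid stress and the unfolded protein response 9 were called higher and none lower, 3 with median scaling. Slc7a11, the cystine transporter, was higher at 4.12 ± 0.52, with 2 of 4 M0 naive arrays above background. Of 26 lysosomal genes 6 were called higher and none lower, 3 with median scaling or without M0 naive replicate 2, led by the proteases Ctsk and Ctsl at 2.92 ± 0.25 and 1.68 ± 0.21. Of 26 genes of hypoxia and glycolysis 6 were called higher and 3 lower. The 3 lower were near the share called lower among protein-coding genes, 1384 of 14856. The number higher was 2 with median scaling and without M2 replicate 1 or 3 or M0 naive replicate 2, and 3 without the filter on dim probes, M2 replicate 4 or M0 naive replicate 3.

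Other genes lower in M2 by a wide margin belonged to no list. Arap3, a regulator of small GTPases, was at -4.97 ± 0.25, though its second probe was at -1.04. Ctla2b was at -4.06 ± 0.25, the G protein-coupled receptor Gpr34 at -3.95 ± 0.28 and the actin-linked Marcksl1 at -3.84 ± 0.27. Fcrl1, an Fc receptor-like protein, was at least 20.4-fold lower and Ifi213 at least 9.0-fold. In all, 156 genes called lower were not above background on any M2 array. These passed the filter only through the M0 naive arrays and could hardly be called higher.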
